A study of Mus musculus with 194 samples.

Results

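The dorsal striatum (DS) of mice given repeated cocaine was profiled by 3′-RNA-seq before and 1 hr after the last dose, and these mice are described here. The libraries were chosen by their labels as those from the DS, of repeated cocaine (called Chronic in the labels), at 0 hr or 1 hr, and of the main sequencing run. This gave 8 libraries of 194 in the series and of 72 from the DS, each from 1 mouse, with 4 mice at 0 hr and 4 at 1 hr. All were male C57BL/6OLAHSD mice, aged 6 to 7 weeks on arrival, that received saline on 3 days and then daily cocaine at 20 mg/kg, injected intraperitoneally. The 1 hr mice were taken 1 hr after the 5th dose. The 0 hr mice had received 4 doses and were taken 24 hr after the 4th, without an injection or a stay in the open field box on that day. Cocaine, the injection and the handling that goes with them therefore cannot be told apart in this comparison. Replicates 1 and 2 of each time point came from cohort exp16 and replicates 3 and 4 from cohort exp17, and the cohort was a term of the model. For the 4 exp17 mice the table holds counts from another sequencing run as well. These are called second libraries here, were kept out of the comparison and served as a technical repeat, and whether they were prepared anew is not given in the sources used here. The 8 libraries held 3007433 to 3564139 counted reads.

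The DS receives dense dopamine input from the midbrain, and most of its neurons are spiny projection neurons that express either the D1 or the D2 dopamine receptor. Cocaine blocks the dopamine transporter and raises extracellular dopamine. In D1 neurons, dopamine raises cAMP and, together with glutamate, activates the ERK branch of the MAP kinase cascade. Both routes reach transcription factors that are already present in the cell, such as CREB, which binds the cAMP response element (CRE), and SRF, which binds the CArG box. Their targets include the immediate-early genes, which are transcribed within minutes without new protein. Some of them encode transcription factors of the FOS, JUN, EGR and NR4A families, others encode synaptic proteins, and others encode phosphatases and inhibitors that shut the cascade down.

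At 1 hr, 49 of 11765 genes tested had risen and 7 had fallen, that is, 0.416% and 0.0595% of them. A gene was called when its edgeR quasi-likelihood test gave an adjusted p under 0.05 over all genes tested and its fold change exceeded 1.2. Of the genes that rose, 25 belonged to lists of immediate-early transcription factors, synaptic and secreted effectors, and MAP kinase phosphatases with other feedback inhibitors. These lists held 36, 33 and 36 of the 11765 genes tested. They were chosen with earlier results of these data known, so the count of 25 was in part set by that choice. The largest increases were those of Fos, Egr2, Nr4a3, Nr4a1, Arc and Junb, at 4.90-fold to 8.41-fold. The log2 fold change (log2FC) exceeded 2 in 8 genes and 1 in 22, and its median over the 49 genes was 0.97. In the 7 genes that fell, the decrease was between 1.25-fold and 1.55-fold. Levels are counts scaled to the size of the library with TMM factors (CPM). In 47 of the 56 genes called, the CPM of the 4 mice at 1 hr did not overlap with that of the 4 mice at 0 hr. Such groups were found in 1.69% of all genes tested with the 1 hr mice higher and in 1.28% with the 1 hr mice lower. Without the cohort term, 31 genes were called, 30 of them higher, and DESeq2 called 41. Of the genes named here, DESeq2 did not call Npas4, Jun, Trib1, Mxd3, H2-M3, Atf4, Usp2 and Ier5l. Without the cohort term, Jun, Trib1, Mxd3, H2-M3, Sstr2, Plk2, Gm13889, Irs2 and Atf4 were not called, nor any gene that fell other than Pdzd2. In bulk tissue, a change in the number of cells of a type and a change in RNA per cell cannot be told apart.

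**Figure D1:**
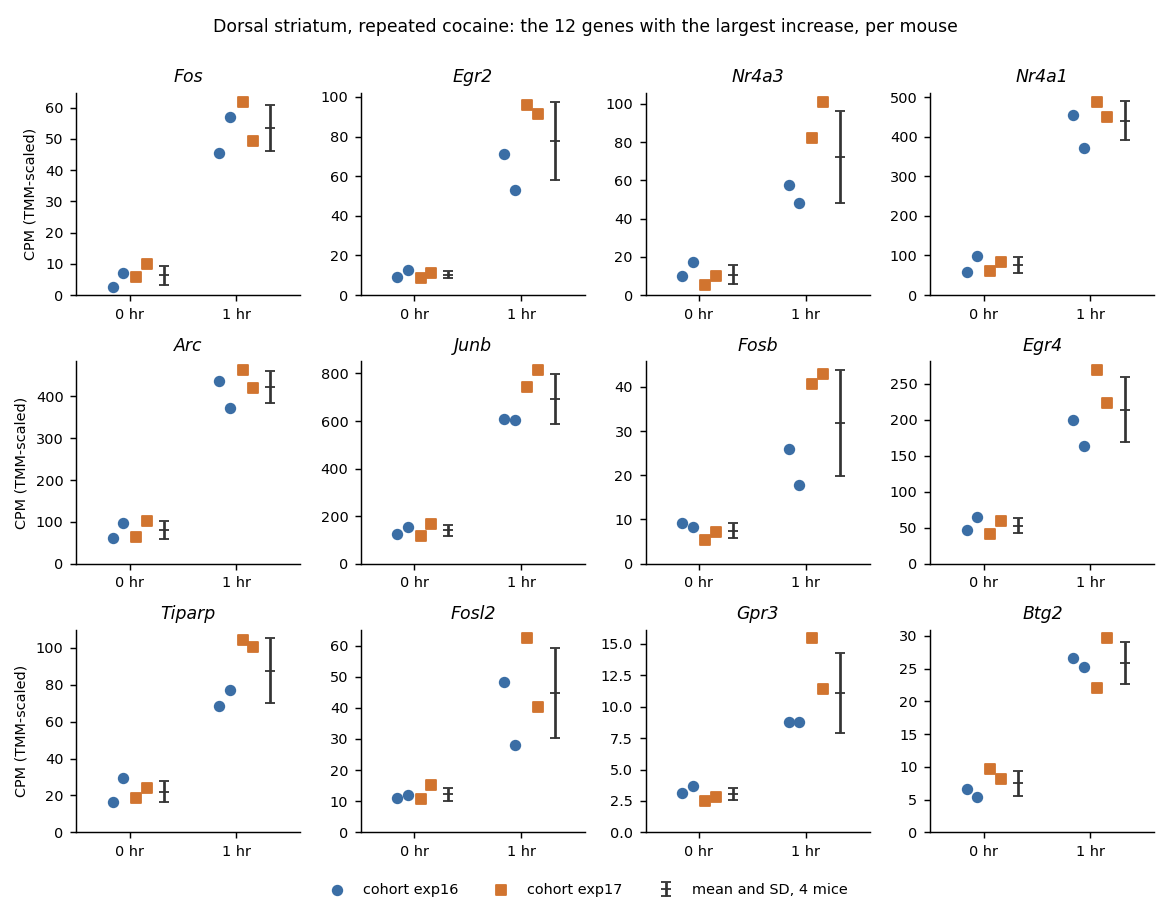
Levels in CPM of the 12 genes with the largest increase, in the 4 mice at 0 hr and the 4 mice at 1 hr after repeated cocaine. Each point is 1 mouse, with its cohort marked, and the bars are the mean ± SD of the 4 mice; in every panel the 1 hr mice lie above the 0 hr mice, and for Fos they lie at 45.5 to 61.8 CPM against 2.51 to 9.91 CPM.

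Among the immediate-early transcription factors, 12 of 36 genes tested had risen and 1 had fallen, with a median log2FC of 0.40 against 0.00 over all genes. Fos (chr12:85473890-85477273, GRCm38) encodes the partner of JUN proteins in the AP-1 complex. It stood at 2.51, 7.04, 5.65 and 9.91 CPM in the 0 hr replicates 1 to 4 and at 45.5, 56.9, 61.8 and 49.4 CPM in the 1 hr replicates 1 to 4. Each mouse at 1 hr had several times the Fos level of any mouse at 0 hr. The increase was 3.07 ± 0.19 on the log2 scale (SE, adjusted p = 1.31e-17), the largest of all genes called in the fit of the 8 mice. In the exp17 mice alone, Nr4a3 at 3.55 and Egr2 at 3.22 were above Fos at 2.81. The Fos counts were low, at 8 to 35 per 0 hr mouse and 160 to 216 per 1 hr mouse. Nr4a1 (chr15:101254269-101274795) and Nr4a3 (chr4:48045153-48086447) encode orphan nuclear receptors. Nr4a1 went from 59.4, 99.9, 61.9 and 82.4 CPM in the 0 hr mice to 455, 373, 488 and 449 CPM in the 1 hr mice, a difference of 2.54 ± 0.10 on the log2 scale (SE, adjusted p = 6.57e-26). The 4 mice at 1 hr were close to each other and far above the 4 mice at 0 hr. Nr4a3 went from 9.74, 17.4, 5.34 and 9.91 CPM to 57.7, 48.1, 82.1 and 101 CPM, a difference of 2.75 ± 0.19 on the log2 scale (SE, adjusted p = 4.85e-16). Both groups were again apart, but the exp17 mice spanned a wider difference than the exp16 mice. Nr4a2, the third member of the family, was too low to be tested.

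The promoters of 6 genes of large increase are shown here because the sequence that CREB binds, and on which cAMP signals converge, stands in them. They are the 4 genes with the largest increase that hold at least 2 copies of the short CRE (TGACG) in the 250 bases before the start site, and the next 2 genes with a full CRE (TGACGTCA). The sequences are from RefSeq for GRCm38.p6, are written 5′ to 3′ on the strand of the gene, and end at the base before the start site. Capitals mark each CRE or short CRE on either strand, so that CGTCA is the short CRE read on the other strand. The windows are chr12:85473640-85473889 on the plus strand for Fos, chr4:48045055-48045304 on the plus strand for Nr4a3, chr15:101266596-101266845 on the plus strand for Nr4a1, chr6:85513590-85513839 on the minus strand for Egr4, chr1:134079156-134079405 on the minus strand for Btg2 and chr17:26508473-26508722 on the minus strand for Dusp1.
Fos: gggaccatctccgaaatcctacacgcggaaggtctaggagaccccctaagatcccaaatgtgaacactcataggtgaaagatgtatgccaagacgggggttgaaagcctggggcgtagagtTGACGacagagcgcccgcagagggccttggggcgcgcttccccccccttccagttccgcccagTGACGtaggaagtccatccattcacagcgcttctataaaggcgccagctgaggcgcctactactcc
Nr4a3: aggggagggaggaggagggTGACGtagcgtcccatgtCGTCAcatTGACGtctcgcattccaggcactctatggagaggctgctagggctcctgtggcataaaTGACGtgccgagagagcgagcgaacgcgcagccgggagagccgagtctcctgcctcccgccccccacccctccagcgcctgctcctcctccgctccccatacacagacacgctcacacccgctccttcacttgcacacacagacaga
Nr4a1: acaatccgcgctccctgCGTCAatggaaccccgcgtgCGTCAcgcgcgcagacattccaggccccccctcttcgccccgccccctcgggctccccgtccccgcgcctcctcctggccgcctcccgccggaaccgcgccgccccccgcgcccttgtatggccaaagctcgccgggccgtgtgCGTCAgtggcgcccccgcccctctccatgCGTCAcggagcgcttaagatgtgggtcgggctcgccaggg
Egr4: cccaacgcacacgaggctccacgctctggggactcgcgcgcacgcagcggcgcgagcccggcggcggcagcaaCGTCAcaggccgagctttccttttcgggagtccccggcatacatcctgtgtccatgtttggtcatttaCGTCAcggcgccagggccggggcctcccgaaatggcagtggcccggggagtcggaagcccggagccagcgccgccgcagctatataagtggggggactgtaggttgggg
Btg2: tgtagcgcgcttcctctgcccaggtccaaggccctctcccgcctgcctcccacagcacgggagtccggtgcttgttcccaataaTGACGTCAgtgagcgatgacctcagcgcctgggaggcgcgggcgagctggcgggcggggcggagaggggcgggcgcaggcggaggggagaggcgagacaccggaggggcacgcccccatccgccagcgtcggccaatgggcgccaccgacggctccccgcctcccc
Dusp1: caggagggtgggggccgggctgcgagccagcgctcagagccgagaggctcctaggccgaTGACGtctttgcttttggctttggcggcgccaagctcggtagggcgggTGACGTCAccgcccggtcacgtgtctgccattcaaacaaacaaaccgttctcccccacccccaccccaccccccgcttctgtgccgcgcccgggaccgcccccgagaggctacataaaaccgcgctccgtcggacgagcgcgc

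Nr4a1 and Nr4a3 each held 4 copies of the short CRE in this window, and Fos and Egr4 held 2. In Fos they stood 129 to 125 and 66 to 62 bases before the start site. Btg2 held a full CRE 166 to 159 bases before its start site. Dusp1 held a full CRE 143 to 136 bases before its start site and a short CRE 191 to 187 bases before it. Over the window from 250 bases before to 50 bases after the start site, read on both strands, a short CRE was found in 24 of the 41 risen genes with a promoter in the RefSeq table. That is 58.5% of them, against 32.7% of the 9266 genes tested that had a promoter there. The 6 genes shown were picked for holding the motif. Among the other large increases, Junb and Fosb held 1 short CRE each, Egr2, Tiparp, Fosl2 and Rnd3 held none, and Arc had no promoter in the table. A full CRE, which contains the short CRE on both strands, was found in 7 of the 41 risen genes (17.1%) and in 3.40% of the genes tested. The EGR motif (GCGNGGGCG) was found in 9 of them (22.0%) against 11.6%, the CArG box in 2 (4.88%) against 1.29%, the TATA box (TATAAA) in 4 (9.76%) against 6.42%, and the AP-1 motif (TGANTCA) in 1 (2.44%) against 4.40%. Of the genes that fell, 6 of 7 had a promoter in the table, and 1 held a short CRE. These are counts of letters in 1 window per gene, were not tested, and do not show binding.

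The other AP-1 genes rose by different amounts. Junb (chr8:84974484-84978718), which encodes a JUN protein, went from 126, 153, 116 and 166 CPM in the 0 hr mice to 608, 603, 743 and 816 CPM in the 1 hr mice. This was a difference of 2.29 ± 0.08 on the log2 scale (SE, adjusted p = 1e-26), with the smallest p-value of all genes. The lowest mouse at 1 hr was far above the highest mouse at 0 hr. Fosb, the source of the long-lived ΔFosB protein, was at 9.11, 8.38, 5.34 and 7.08 CPM at 0 hr and at 26, 17.8, 40.6 and 42.9 CPM at 1 hr, a difference of 2.06 ± 0.21 on the log2 scale (SE, adjusted p = 8.77e-10). Its groups did not overlap, but the exp17 mice at 1 hr stood well above the exp16 mice. Fosl2 went from 11, 12.1, 10.7 and 15.3 CPM to 48.4, 27.9, 62.4 and 40.2 CPM, a difference of 1.86 ± 0.18 on the log2 scale (SE, adjusted p = 3.96e-11). Jun rose by only 0.63 ± 0.16 (adjusted p = 0.0415), from 13.5, 17.1, 27.6 and 23.2 CPM to 19.5, 27.9, 39.5 and 39.5 CPM. Here the groups overlapped, since replicate 1 at 1 hr was below 2 of the 0 hr mice. The Jun call was lost without any 1 of 6 of the 8 mice, at adjusted p of up to 0.205, and was kept without 0 hr replicate 2 or 1 hr replicate 1. Atf3 and Fosl1 were too low to be tested.

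The EGR family encodes zinc finger factors, and 3 of its 4 members were called. Egr2 (chr10:67535475-67542188) went from 9.11, 12.4, 8.48 and 11.3 CPM in the 0 hr mice to 71, 52.8, 96.1 and 91.1 CPM in the 1 hr mice, a difference of 2.90 ± 0.15 on the log2 scale (SE, adjusted p = 1.84e-20). Egr4 went from 46.5, 64.7, 41.1 and 59.5 CPM to 199.7, 163, 269 and 224 CPM, a difference of 2.01 ± 0.11 on the log2 scale (SE, adjusted p = 4.56e-20). In both, the lowest mouse at 1 hr was well above the highest mouse at 0 hr. Egr1 was at 243, 378, 234 and 288 CPM in the 0 hr mice and at 576, 426, 735 and 549.7 CPM in the 1 hr mice. Its difference was 1.00 ± 0.10 on the log2 scale (SE, adjusted p = 6.03e-10), and its groups came close, with replicate 2 the highest mouse at 0 hr and the lowest at 1 hr. Egr3 was at 239.8, 221, 208 and 255 CPM at 0 hr and at 289, 243, 302 and 249 CPM at 1 hr. The Egr3 groups overlapped and its difference of 0.23 ± 0.08 did not pass the test (adjusted p = 0.351, 95% interval 0.07 to 0.38). Npas4, a neuronal factor that responds to calcium entry, was at 7.54, 7.38, 7.22 and 22.1 CPM at 0 hr and at 21.5, 29.6, 20.6 and 37.7 CPM at 1 hr, a difference of 1.30 ± 0.23 on the log2 scale (SE, adjusted p = 0.000318). Its groups overlapped because 0 hr replicate 4 was above 2 of the 1 hr mice. The adjusted p was 0.362 with DESeq2 and 0.612 in the exp17 mice alone, and the second libraries gave an estimate of 0.63. The remaining members of the list that were called were Btg2, an antiproliferative co-regulator that does not bind DNA by itself, at 1.78 ± 0.20 (adjusted p = 1.26e-08), and Ier5l, which fell and is described with the other genes that fell. Of the list members that were not called, Nfil3 had a log2FC of 0.89 ± 0.39 (adjusted p = 0.675) and Csrnp1 of 0.85 ± 0.27 (adjusted p = 0.294). Cebpd had 0.83 ± 0.25 (adjusted p = 0.213). All 3 had low levels, between 1.01 and 22.3 CPM over the 8 mice.

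**Figure D2:**
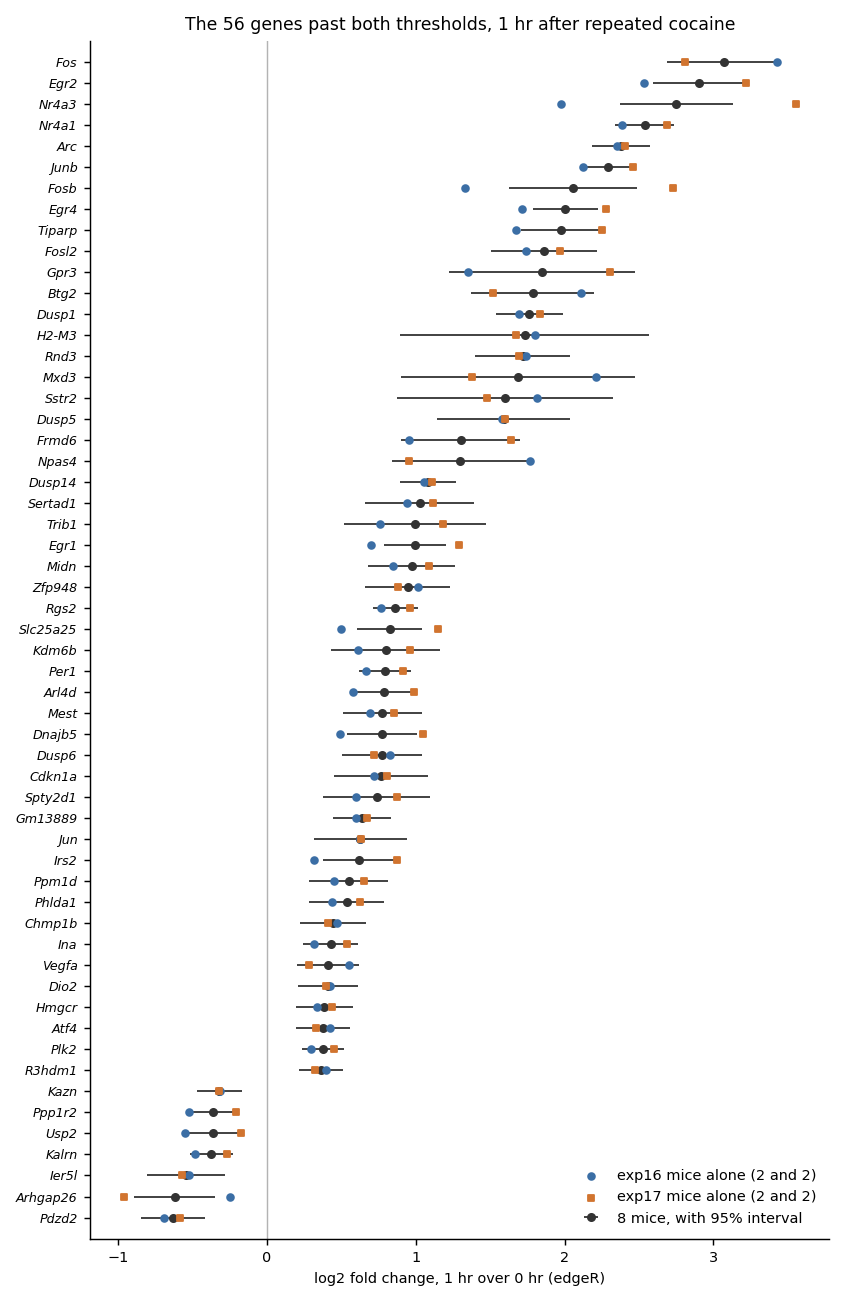
Log2FC at 1 hr against 0 hr for the 56 genes called, with the 95% interval of the fit over 8 mice, and the estimates from the exp16 and the exp17 mice alone. Genes are ordered by log2FC from Fos at 3.07 to Pdzd2 at -0.63, and both cohort estimates lie on the same side of 0 for all 56. The genes were called on these same mice, so this sharing of sign was largely set by their choice.

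Among the synaptic and secreted effectors, 7 of 33 genes tested had risen and none had fallen. The median log2FC of the list was 0.20. Arc (chr15:74669083-74672570) encodes a capsid-forming protein of the synapse that acts in AMPA receptor removal. It was at 62.2, 96.9, 63.4 and 102 CPM in the 0 hr mice and at 436, 372, 464 and 421 CPM in the 1 hr mice, a difference of 2.38 ± 0.10 on the log2 scale (SE, adjusted p = 6.81e-25). The lowest 1 hr mouse had several times the level of the highest 0 hr mouse. Tiparp, a mono-ADP-ribosyltransferase, went from 16.3, 29.5, 18.5 and 24.1 CPM to 68.4, 77.1, 104 and 100.4 CPM, a difference of 1.98 ± 0.13 on the log2 scale (SE, adjusted p = 4.03e-16). Rgs2, which speeds up the inactivation of G proteins, went from 279, 356, 229 and 269 CPM to 508, 568, 524 and 453 CPM, a difference of 0.86 ± 0.08 on the log2 scale (SE, adjusted p = 2.56e-12). Both genes had groups that did not overlap, although the Rgs2 increase was less than 2-fold. Plk2, a kinase that acts in synaptic scaling, was at 277, 273, 233 and 231 CPM at 0 hr and at 314, 362, 326 and 312 CPM at 1 hr, a difference of 0.38 ± 0.07 on the log2 scale (SE, adjusted p = 0.000683). It was the smallest increase among the 7 called genes of this list, and its groups still did not overlap. Arl4d, a small GTPase, rose by 0.79 ± 0.11 (adjusted p = 4.14e-06), with the 0 hr mice at 39.6 to 60 CPM and the 1 hr mice at 75 to 93.9 CPM.

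The list also held 2 genes of G protein coupled receptors. Gpr3 raises cAMP without a ligand, and Sstr2 is a somatostatin receptor that lowers it. Gpr3 was at 3.14, 3.69, 2.51 and 2.83 CPM at 0 hr and at 8.77, 8.75, 15.4 and 11.4 CPM at 1 hr, a difference of 1.85 ± 0.31 on the log2 scale (SE, adjusted p = 0.000143). In the second libraries of the exp17 mice the Gpr3 difference was 0.59. Sstr2 went from 2.51, 0.335, 2.83 and 4.81 CPM to 5.37, 5.05, 8.87 and 13 CPM, a difference of 1.6 ± 0.36 on the log2 scale (SE, adjusted p = 0.0162). Its counts were 1 to 17 per mouse at 0 hr and 15 to 42 at 1 hr. Without 0 hr replicate 2, 0 hr replicate 3, 1 hr replicate 1 or 1 hr replicate 4, the Sstr2 call was lost, at adjusted p of up to 0.16. Homer1 had a log2FC of 0.26 ± 0.08 (adjusted p = 0.277), and its table row does not separate the short, activity-dependent transcript from the long ones. Bdnf, Ptgs2, Gem and Rasd1 were too low to be tested.

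Among the MAP kinase phosphatases and feedback inhibitors, 6 of 36 genes tested had risen and none had fallen, with a median log2FC of 0.27. Of these 6, 4 encode dual-specificity phosphatases, which remove phosphates from MAP kinases. Dusp1 was at 32.4, 37.5, 26.1 and 25.5 CPM in the 0 hr mice and at 97, 129.9, 92.1 and 93 CPM in the 1 hr mice, a difference of 1.76 ± 0.11 on the log2 scale (SE, adjusted p = 2.63e-17). Replicate 2 was the highest mouse at both time points. Dusp14 went from 77, 112, 96.4 and 104 CPM to 208, 182, 253 and 181 CPM, a difference of 1.09 ± 0.09 on the log2 scale (SE, adjusted p = 2.29e-12). Dusp5 went from 5.03, 8.38, 9.42 and 5.95 CPM to 20.1, 19.9, 18.6 and 28.1 CPM, a difference of 1.59 ± 0.22 on the log2 scale (SE, adjusted p = 2.54e-06). The groups of all 3 were apart. Dusp6, a phosphatase of ERK, was at 27, 54, 41.1 and 34 CPM and 74.7, 68, 70.7 and 53.1 CPM, a difference of 0.78 ± 0.13 on the log2 scale (SE, adjusted p = 0.000186). Its groups overlapped, because replicate 4 at 1 hr was just below replicate 2 at 0 hr. Midn, which encodes a protein of the ubiquitin-like family, rose by 0.97 ± 0.14 (adjusted p = 1.1e-05). Trib1, a pseudokinase that binds MEK1, rose by 1.00 ± 0.24 (adjusted p = 0.0297), with the 0 hr mice at 6.03 to 9.42 CPM and the 1 hr mice at 9.33 to 18.5 CPM, and the groups overlapped. Its call was lost without any 1 of 6 of the 8 mice, at adjusted p of up to 0.232, and was kept without 0 hr replicate 1 or 1 hr replicate 1. Sik1, a CREB-regulated kinase counted with this list, had a log2FC of 1.14 ± 0.31 and was not called (adjusted p = 0.113).

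**Figure D3:**
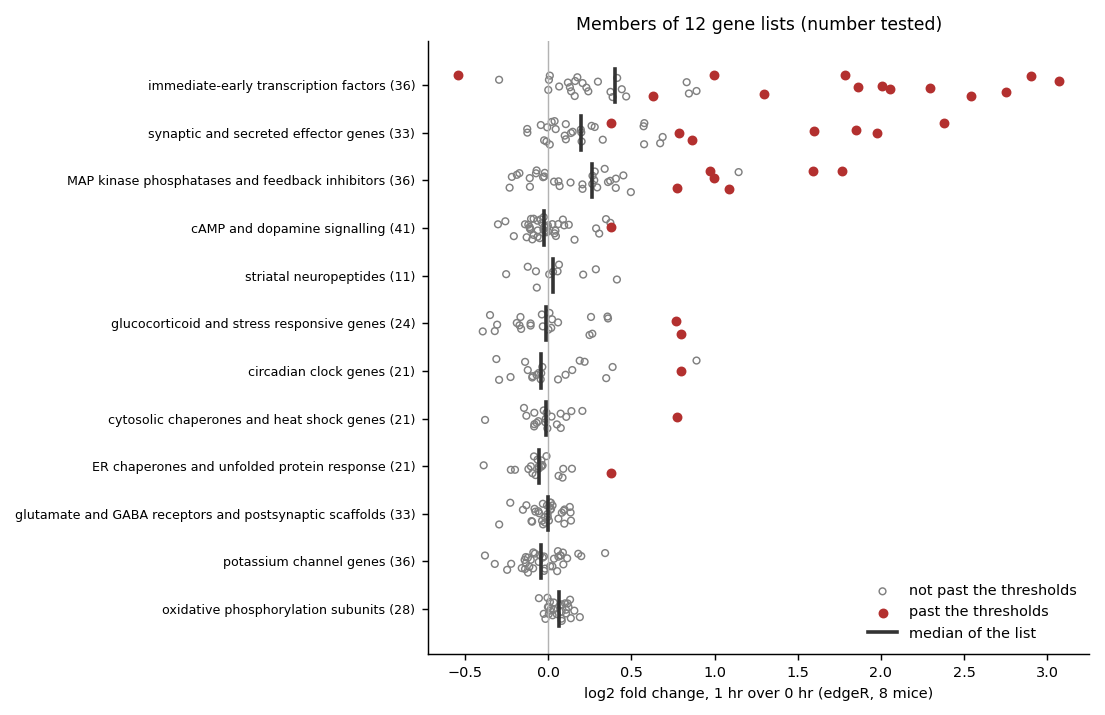
Log2FC at 1 hr against 0 hr of the members of 12 gene lists, each point 1 gene, with a bar at the median of the list and called genes marked. The medians of the first 3 lists are 0.40, 0.20 and 0.27, and those of the other 9 lie between -0.06 and 0.06. The lists were chosen with earlier results of these data known.

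The other lists held few called genes, where 0.416% of all genes tested had risen and 0.0595% had fallen. Per1 was the only called gene of 21 clock genes and 1 of 2 called among 24 glucocorticoid and stress responsive genes. It went from 87.1, 127, 114 and 110.2 CPM in the 0 hr mice to 167, 170.3, 206 and 218 CPM in the 1 hr mice, a difference of 0.79 ± 0.09 on the log2 scale (SE, adjusted p = 3.31e-09). The groups did not overlap. Per1 is a target of CREB and of the glucocorticoid receptor. The other called gene of the stress list was Cdkn1a, a cell cycle inhibitor, at 0.77 ± 0.16 (adjusted p = 0.00370). The Cdkn1a call was lost without 0 hr replicate 4 or without 1 hr replicate 4, at adjusted p of up to 0.0575. Fkbp5 and Tsc22d3, direct targets of the glucocorticoid receptor, had log2FC of -0.17 ± 0.12 and -0.31 ± 0.13 (adjusted p = 0.866 and 0.680). Sgk1, another of its targets, had 0.36 ± 0.10 (adjusted p = 0.150). Over the 24 genes of the list the median log2FC was -0.02. Among 21 cytosolic chaperones, Dnajb5, a member of the HSP40 family, rose by 0.78 ± 0.12 (adjusted p = 1.49e-05). Atf4, a transcription factor of the integrated stress response that stands both on the cAMP list and on the ER stress list, rose by 0.38 ± 0.09 (adjusted p = 0.0317). It was at 72.6, 73.8, 86.7 and 73.1 CPM at 0 hr and at 98.1, 97.9, 101 and 101 CPM at 1 hr. The Atf4 groups did not overlap, but the call was lost without any 1 of 7 of the 8 mice, at adjusted p of up to 0.188, and was kept only without 0 hr replicate 3. No other gene was called among 41 genes of cAMP and dopamine signalling or 21 ER chaperones and genes of the unfolded protein response.

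No gene passed the test among 11 striatal neuropeptide genes, 33 glutamate and GABA receptor and scaffold genes, 36 potassium channel genes or 28 subunits of oxidative phosphorylation. Their median log2FC were 0.03, 0.00, -0.04 and 0.06. For the dopamine receptors, Drd1 was at 445, 415, 386 and 389 CPM in the 0 hr mice and at 414, 369, 384 and 336 CPM in the 1 hr mice. Its log2FC was -0.12 ± 0.07 (adjusted p = 0.825). Drd2 was at 242, 248, 248 and 251 CPM and 290.2, 229.5, 263 and 237 CPM, with a log2FC of 0.04 ± 0.07 (adjusted p = 0.956). Both receptors overlapped between the time points. Penk, the enkephalin precursor of D2 neurons, had a log2FC of 0.01 ± 0.06 (95% interval -0.11 to 0.12), and Tac1, the substance P precursor of D1 neurons, had 0.06 ± 0.06 (95% interval -0.07 to 0.18).

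Outside the lists, 20 of the called genes had risen and 6 had fallen. Of those among the 25 largest increases, Rnd3, whose product promotes loss of actin stress fibers, rose from 10.7, 16.1, 15.7 and 15.3 CPM to 49.2, 39.7, 61.5 and 39.2 CPM. The difference was 1.72 ± 0.16 on the log2 scale (SE, adjusted p = 1.88e-11), and each mouse at 1 hr was at more than 2 times the level of any mouse at 0 hr. Frmd6, a FERM domain protein of the Hippo pathway, rose by 1.30 ± 0.20 (adjusted p = 1.85e-05). Sertad1, a regulator of E2F activity, rose by 1.03 ± 0.18 (adjusted p = 0.000330). The Frmd6 and Sertad1 groups did not overlap. H2-M3, a non-classical MHC class I gene, and Mxd3, a partner of MAX, rested on few reads. H2-M3 had 3 to 9 counts per mouse at 0 hr and 15 to 22 at 1 hr, a difference of 1.73 ± 0.42 on the log2 scale (SE, adjusted p = 0.0314). Mxd3 had 2 to 11 counts at 0 hr and 16 to 32 at 1 hr, a difference of 1.69 ± 0.39 on the log2 scale (SE, adjusted p = 0.0216). The H2-M3 call was kept without 0 hr replicate 4 and lost without each other mouse, at adjusted p of up to 0.257. The Mxd3 call was lost without 0 hr replicates 1, 2 or 4 or 1 hr replicates 1 or 4, each left out by itself, at adjusted p of up to 0.196. Among the smaller increases, singled out after their values were seen, were those of Irs2, an adaptor of the insulin receptor, at 0.62 ± 0.12 (adjusted p = 0.00142, and 0.0698 without 1 hr replicate 3). Slc25a25, a mitochondrial carrier of ATP-Mg and phosphate, was likewise singled out, at 0.83 ± 0.11 (adjusted p = 6.07e-07). Its groups did not overlap, while those of Irs2 did.

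The 7 genes that fell did so by less than any of the 25 largest increases. Pdzd2, a PDZ domain protein, was at 78.9, 83.1, 107 and 81.6 CPM in the 0 hr mice and at 48.4, 52.2, 72.7 and 53.1 CPM in the 1 hr mice, a difference of -0.63 ± 0.11 on the log2 scale (SE, adjusted p = 0.000143). Kalrn, which encodes a protein of dendritic spines, was at 265, 256, 273 and 255 CPM and 184, 188, 232 and 209 CPM, a difference of -0.37 ± 0.07 on the log2 scale (SE, adjusted p = 0.00151). In both genes every mouse at 1 hr was below every mouse at 0 hr, and both calls held when any 1 mouse was left out. The Kalrn call was lost without the cohort term (adjusted p = 0.0819). Usp2, a deubiquitinase that acts on clock proteins, was at 203, 187, 150.4 and 159 CPM and 125, 141, 129.9 and 147 CPM, a difference of -0.36 ± 0.08 on the log2 scale (SE, adjusted p = 0.0188). Arhgap26 was at 37.4, 36.9, 55.6 and 53.2 CPM and 33.1, 29.3, 28.9 and 27.2 CPM, a difference of -0.62 ± 0.13 on the log2 scale (SE, adjusted p = 0.0104). Its decrease lay mostly in the exp17 mice, at -0.96 against -0.25 in the exp16 mice (adjusted p for the difference = 0.930). Ier5l had a difference of -0.54 ± 0.13 (adjusted p = 0.0297), Kazn of -0.32 ± 0.07 (adjusted p = 0.0249) and Ppp1r2, an inhibitor of protein phosphatase 1, of -0.36 ± 0.08 (adjusted p = 0.00862). Only Ppp1r2 had overlapping groups. Without 0 hr replicate 2 or 1 hr replicate 1 only 3 genes had fallen, and without 0 hr or 1 hr replicate 3 only 4 had. The last 5 calls were not held when single mice were left out. Usp2 was lost without 0 hr replicates 1 or 2 or 1 hr replicates 1 or 3 (adjusted p of up to 0.292), Arhgap26 without replicates 3 or 4 of either time point (up to 0.138), and Ppp1r2 without 0 hr replicates 2 or 3 or 1 hr replicate 1 (up to 0.159). Ier5l was kept only without 1 hr replicate 3 (up to 0.334), and Kazn only without 0 hr replicate 1 or 1 hr replicate 2 (up to 0.212). In the second libraries the sign was the opposite for Ier5l, at 0.14, and for Arhgap26, at 0.17.

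The changes were measured within each cohort, since the labels name the cohorts as different experiments. Of the 56 genes called, 25 passed the thresholds in the 4 exp16 mice alone and 29 in the 4 exp17 mice alone. Over all genes tested, 28 of 11685 passed in the exp16 mice and 30 of 12012 in the exp17 mice. The 56 genes were called on these same mice, so the counts are no repeat in other animals. The 18 genes called in both cohorts were Fos, Egr2, Nr4a3, Nr4a1, Arc, Junb, Fosb, Egr4, Tiparp, Fosl2, Btg2, Dusp1, Rnd3, Dusp5, Dusp14, Egr1, Rgs2 and Per1. For Nr4a3 the log2FC was 1.97 in exp16 and 3.55 in exp17, the gene with the smallest p for a difference between cohorts (adjusted p = 0.363 over 11765 genes). For Fosb it was 1.33 and 2.73 (adjusted p for the difference = 0.930). For Arc it was 2.35 and 2.40. The test of this difference, which was added after seeing the data, called no gene with edgeR, and 586 genes, or 4.98%, had an unadjusted p under 0.05.

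In the second libraries of the exp17 mice, at 1689860 to 1895163 counted reads, 46 of the 47 risen genes that could be tested had an estimate above 0. The 2 that were too low to be tested were not higher at 1 hr, with Sstr2 at 8 and 22 counts in the 0 hr mice and 6 and 9 in the 1 hr mice, and H2-M3 at 7 and 0 counts and 2 and 0. With 2 mice a side, 19 of 11065 genes passed the thresholds (0.172%), all of them among the 49. Nr4a3 was at 7.68 and 7.64 CPM in the 0 hr mice and at 98.8 and 107 CPM in the 1 hr mice, an increase of 3.72. Fos was at 3.84 and 8.15 CPM and at 29.2 and 54.9 CPM, an increase of 2.77. Egr2 rose by 2.93, Nr4a1 by 3.20 and Arc by 2.24. The estimate below 0 was that of Atf4, at -0.077. These libraries come from the same mice as replicates 3 and 4, so they repeat the sequencing but not the animals.

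Cell type markers were compared between the time points. Striatal markers were present in every mouse, with Ppp1r1b, which encodes DARPP-32, at 3017 to 3546 CPM and Drd2 at 229.5 to 290.2 CPM. The summed level of 15 projection neuron markers was 17136 to 20406 CPM at 0 hr and 17052 to 20331 CPM at 1 hr. The corresponding sums were 2308 to 3146 and 2372 to 3081 CPM for cortical excitatory neurons, 10056 to 11766 and 10271 to 11364 CPM for oligodendrocytes, and 276 to 531 and 279 to 402 CPM for endothelial cells. No member of the 12 marker lists was called, where 0.416% of all genes tested had risen and 0.0595% had fallen. Some lists were tested only in part. These were choroid plexus (3 of 10 genes), blood (4 of 11), cortical excitatory neuron (7 of 12) and ependymal (7 of 10), among others. Over 12 marker sums and the library total, the 1 hr to 0 hr ratio was 0.920 to 1.17 and the smallest p of the exact two-sided permutation test was 0.343 (4 against 4 mice, smallest p possible 0.0286). The largest of these ratios was that of the blood list, at 392 to 528 CPM and 376 to 623 CPM, in which the neutrophil genes Ngp, Camp and Ltf were at 0. Apold1, an endothelial gene that is also an immediate-early gene, was at 4.09, 1.68, 2.51 and 1.70 CPM and 7.64, 4.38, 7.72 and 5.56 CPM. Its groups did not overlap but its difference of 1.35 ± 0.37 did not pass the test (adjusted p = 0.127).

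The level of the risen genes was followed at 2 hr (5 mice) and 4 hr (4 mice) after the 5th dose, against the same 4 mice at 0 hr. These estimates share their control mice, so they are given side by side. At 2 hr, 22 of 12211 genes were higher (0.18%) and 1 was lower (0.00819%), and at 4 hr 3 were higher (0.0246%) and none lower. The fit held all 17 mice. In 30 of the 49, 2 hr replicate 5 was the lowest of the 5 mice at 2 hr, as it was in 2582 of all 11765 genes tested (21.9%). Without this mouse, an alternative added after seeing the data, 38 genes in place of 22 were higher at 2 hr.

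Fos was at 4.25 to 13.2 CPM in the 2 hr mice and at 2.06 to 9.51 CPM in the 4 hr mice. Against 0 hr this was 0.52 ± 0.29 at 2 hr (SE, adjusted p = 0.991) and -0.14 ± 0.32 at 4 hr (adjusted p = 0.997), after 3.07 at 1 hr in the same fit. The ranges at 2 and 4 hr lay within or near that of the 0 hr mice. For Arc, the 2 hr mice were at 62.3 to 152 CPM and the 4 hr mice at 50.7 to 122 CPM, with differences of 0.33 ± 0.17 at 2 hr (SE, adjusted p = 0.983) and -0.20 ± 0.19 at 4 hr (adjusted p = 0.989). Junb had differences of 0.34 ± 0.12 at 2 hr (SE, adjusted p = 0.633) and -0.06 ± 0.13 at 4 hr (adjusted p = 0.997) and Dusp1 of 0.21 ± 0.12 at 2 hr (SE, adjusted p = 0.998) and -0.12 ± 0.14 at 4 hr (adjusted p = 0.991). None of these 4 genes passed the test at 2 hr. Nr4a3 was still at 32.5 to 81 CPM in the 2 hr mice and was at 7.73 to 21.1 CPM in the 4 hr mice. Its differences were 2.58 ± 0.23 at 2 hr (SE, adjusted p = 2.7e-11) and 0.49 ± 0.29 at 4 hr (adjusted p = 0.979), after 2.78 at 1 hr. Every mouse at 2 hr remained above every mouse at 0 hr. Dusp14 was at 134 to 271 CPM at 2 hr and 88.7 to 121 CPM at 4 hr, with differences of 1.19 ± 0.12 at 2 hr (SE, adjusted p = 3.22e-10) and 0.07 ± 0.13 at 4 hr (adjusted p = 0.997), after 1.09 at 1 hr. Fosl2 had differences of 1.64 ± 0.21 at 2 hr (SE, adjusted p = 9.08e-07) and 0.17 ± 0.25 at 4 hr (adjusted p = 0.997). Fosb was at 14.1 to 28.7 CPM at 2 hr and at 12.4 to 19.1 CPM at 4 hr. Its differences were 1.64 ± 0.23 at 2 hr (SE, adjusted p = 1.06e-05) and 1.06 ± 0.25 at 4 hr (adjusted p = 0.125), after 2.07 at 1 hr, so that its 4 hr mice all lay above the 0 hr mice without passing the test. Nr4a1 had differences of 0.98 ± 0.17 at 2 hr (SE, adjusted p = 0.000825) and 0.18 ± 0.19 at 4 hr (adjusted p = 0.989), after 2.55 at 1 hr. Egr2 had 1.33 ± 0.22 at 2 hr (SE, adjusted p = 0.000193) and 0.21 ± 0.25 at 4 hr (adjusted p = 0.991), after 2.91 at 1 hr. Without 2 hr replicate 5 the 2 hr difference of Nr4a3 was 2.80 and that of Egr2 was 1.57. Whether 2 genes differed in how fast they declined was not tested.

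**Figure D4:**
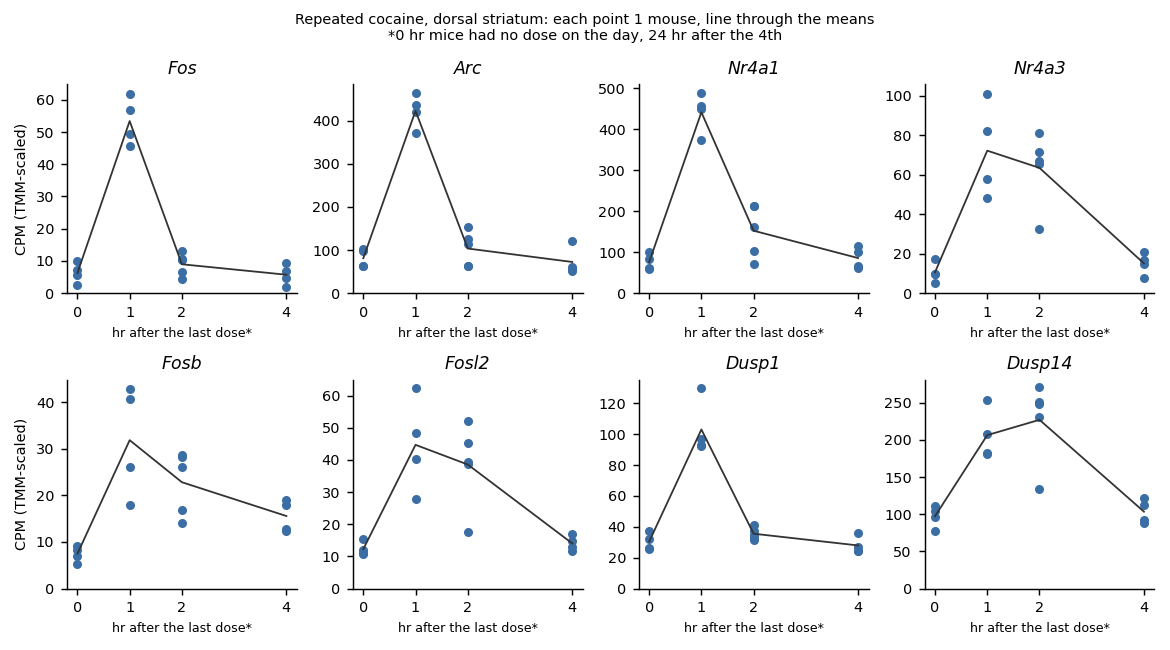
Levels in CPM of Fos, Arc, Nr4a1, Nr4a3, Fosb, Fosl2, Dusp1 and Dusp14 in the 17 mice taken 0, 1, 2 or 4 hr after repeated cocaine, each point 1 mouse and the line through the means. Fos is at 45.5 to 61.8 CPM at 1 hr and at 4.25 to 13.2 CPM at 2 hr, whereas Nr4a3 is at 48.1 to 101 CPM at 1 hr and at 32.5 to 81.0 CPM at 2 hr.

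The response at 1 hr was compared with that of mice given cocaine for the first time (acute, 4 mice at 0 hr and 4 at 1 hr) and of mice challenged after 21 days of abstinence (3 and 4 mice). Each treatment had its own 0 hr mice, and the difference between the responses was tested as an interaction. Acute libraries came from another sequencing run than the repeated and challenge libraries, so the run and the treatment cannot be told apart there except in the second libraries, which shared 1 run. Each treatment also had cohorts of its own, so cohort and treatment cannot be told apart in either comparison or in the shared run. Between repeated and acute cocaine, 2 of 12652 genes differed (0.0158%), and 710 genes (5.61%) had an unadjusted p under 0.05. None differed without repeated 0 hr or 1 hr replicate 4, 4 without acute 0 hr replicate 3, and 5 without acute 0 hr replicate 1 or 4. The count was 1 without the cohort term, 0 in the shared run and 91 without a filter on low counts. Between repeated and challenge cocaine none did (0%), with edgeR and with DESeq2, and 511 genes (4.04%) had an unadjusted p under 0.05. In the shared run 2 genes differed from challenge, and 4 did without the filter on low counts.

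Arl5b (chr2:15049395-15082456), a small GTPase of the trans-Golgi, had a smaller response after repeated than after acute cocaine. It went from 10.9, 6.44, 12.4 and 11.5 CPM to 53.9, 38.5, 44.0 and 41.1 CPM after acute cocaine, and the groups were far apart. After repeated cocaine it went from 13.8, 15.8, 11.9 and 21 CPM to 23.8, 18.2, 28.9 and 22.6 CPM, with overlapping groups, and was not called (adjusted p = 0.278 in the fit of 8 mice). After challenge it went from 17.8, 20.2 and 14.8 CPM to 41.0, 35.0, 38.5 and 40.3 CPM. The responses were 2.04 ± 0.17, 0.58 ± 0.17 and 1.15 ± 0.16 on the log2 scale, and repeated minus acute was -1.46 (95% interval -1.95 to -0.96, adjusted p = 0.00815). In the second libraries, which shared a run, the difference was -0.84 (95% interval -1.84 to 0.16, adjusted p = 1.00). Gm13889 (chr2:93955810-93957201), a gene annotated as protein coding, was at 69.8, 62.9, 64.8 and 66.1 CPM before and at 204, 159, 167 and 192 CPM after acute cocaine. With repeated cocaine it was at 45.3, 50, 66.3 and 70.8 CPM and 73, 70.7, 116 and 103 CPM, and the exp17 mice were higher than the exp16 mice at both time points. It was among the 49 risen genes (adjusted p = 1.8e-05), with overlapping groups. The responses were 1.44 ± 0.10 and 0.64 ± 0.10, and 1.15 ± 0.10 with challenge. The difference from acute was -0.80 (95% interval -1.08 to -0.52, adjusted p = 0.00815), and in the second libraries -0.56 (95% interval -1.11 to -0.0034, adjusted p = 1.00). Both calls were lost without repeated 0 hr replicate 4 (adjusted p = 0.0927) or 1 hr replicate 4 (adjusted p = 0.0534). That of Gm13889 was also lost without the cohort term (adjusted p = 0.356), as was its call at 1 hr (adjusted p = 0.0821). Reads of Arl5b and of Nsun6, which overlaps it on the other strand, may not have been told apart.

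Egr3 missed the threshold in the same test, with a difference of -0.56 ± 0.11 (SE, adjusted p = 0.0504), and passed it with DESeq2 (adjusted p = 0.00649). It went from 248, 234, 246 and 208 CPM to 429.5, 376, 404 and 412 CPM after acute cocaine, against 208 to 255 CPM and 243 to 302 CPM with repeated cocaine. In the shared run its difference was -0.18. Of the risen genes, only Gm13889 passed this test. The risen genes were chosen on the same repeated mice, so their differences from the other treatments are given as single values, and no count over them is read. For Fos, repeated minus acute was 0.95 (95% interval -0.15 to 2.06, adjusted p = 0.894), with responses of 3.08 ± 0.36 and 2.12 ± 0.35. For Arc it was 0.21 (95% interval -0.37 to 0.80, adjusted p = 0.968) and for Junb 0.07 (95% interval -0.35 to 0.48, adjusted p = 0.983). Arc had a mean of 81.1 ± 21.2 CPM at 0 hr and 423 ± 38.5 CPM at 1 hr of repeated cocaine, against 159 ± 39.3 and 699 ± 134 CPM of acute cocaine (SD, n = 4 each). Junb had 140.2 ± 23.2 and 692 ± 105 CPM against 209 ± 60.9 and 957 ± 136 CPM (SD, n = 4 each). For both genes the repeated means were below the acute ones at 0 hr and at 1 hr, a difference in level that was not tested. Repeated minus acute was -0.46 for Egr2 (95% interval -1.15 to 0.23, adjusted p = 0.914) and 0.36 for Nr4a3 (95% interval -0.29 to 1.02, adjusted p = 0.923). Egr4 had -0.46 (95% interval -0.88 to -0.05, adjusted p = 0.879) and Fosl2 -0.73 (95% interval -1.40 to -0.07, adjusted p = 0.879). Egr1 had -0.47 (95% interval -0.89 to -0.04, adjusted p = 0.879) and Midn -0.60 (95% interval -1.10 to -0.11, adjusted p = 0.879), whereas Dusp1 had 0.54 (95% interval 0.06 to 1.02, adjusted p = 0.879). None of these differences was called. Repeated minus challenge was 0.86 (95% interval 0.38 to 1.35, adjusted p = 1.00) for Nr4a1 and 0.92 (95% interval 0.39 to 1.45, adjusted p = 1.00) for Rnd3, neither past the adjusted threshold. Nr4a1 had a mean of 75.9 ± 19 CPM at 0 hr and 441 ± 48.8 CPM at 1 hr of repeated cocaine (SD, n = 4 each), against 181 ± 68.3 CPM (SD, n = 3) and 575 ± 69.2 CPM (SD, n = 4) with challenge. Rnd3 had 14.4 ± 2.53 and 47.4 ± 10.5 CPM against 31.1 ± 3.51 and 54.0 ± 7.13 CPM in the same mice. The repeated means of both genes were thus lower at both times, and these levels were not tested. Repeated minus challenge was 0.76 for Egr2 (95% interval 0.12 to 1.40) and 0.70 for Arc (95% interval 0.10 to 1.30). For Fos it was 0.82 (95% interval -0.21 to 1.84), and none of the 3 was called. Their repeated means were also lower than those with challenge at both times. In the other direction it was -0.51 for Gm13889 (95% interval -0.79 to -0.23, adjusted p = 1.00) and -0.57 for Arl5b (95% interval -1.04 to -0.09, adjusted p = 1.00). For Fosb the difference from challenge was 0.04 (95% interval -0.58 to 0.66, adjusted p = 1.00), and for Egr4 0.03 (95% interval -0.38 to 0.44, adjusted p = 1.00).

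**Figure D5:**
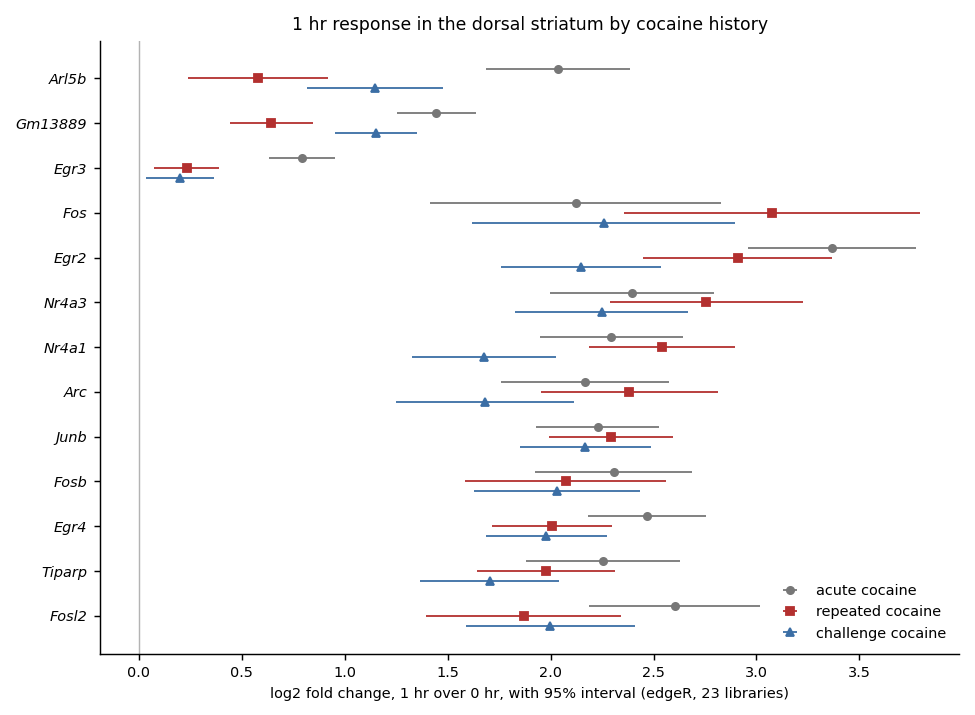
Response at 1 hr against its own 0 hr mice, as log2FC with 95% interval, after acute, repeated and challenge cocaine in the DS for 13 genes. The Arl5b response is 2.04 after acute and 0.58 after repeated cocaine, and for Junb the 3 estimates are 2.23, 2.30 and 2.17.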

How the data were processed

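3′-RNA-seq libraries with unique molecular identifiers (UMIs) were made by the authors from DS tissue dissected from coronal slices. Reads were collapsed by UMI, cleared of polyA, aligned (STAR, GRCm38) and assigned to genes (HTSeq), and the deepest samples were down-sampled by the authors. The authors deposited whole-number counts of reads per gene, not normalized for library size, for 19363 genes (197 without a count and none from the mitochondrial genome) and 194 libraries. The versions, the annotation and the use of strand are not given in the sources used here.

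The 8 libraries were fitted with edgeR 4.0.16 in R 4.3.3 (filterByExpr by time, TMM, quasi-likelihood F test, cohort as covariate). Genes were called at a Benjamini-Hochberg adjusted p under 0.05 over all genes tested and a fold over 1.2. Errors are standard errors of the fit and intervals are 95%. The tests set each difference against the spread between the mice of the fit, estimated with information shared over genes. Replicates were compared by their counts, and none were the same library. Responses after acute, repeated and challenge cocaine were fitted in 1 model of 23 libraries, and 2 and 4 hr in 1 model of 17. The scripts were tested on simulated data. Marker sums were compared with an exact two-sided permutation test (scipy 1.17.1).

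The comparison, the gene lists and the motifs were chosen with earlier results of these data known. Named genes are the 25 with the largest increase, the 15 with the largest decrease among genes called (7 were called), members of the lists, the 5 with the largest difference in each direction in each interaction, and Arc, Egr2, Fos, Nr4a1, Drd1 and Drd2. Gene positions are those of GENCODE release M21, which may not be the annotation counted on. Where genes overlap on opposite strands, their reads may not have been told apart: this touches Junb (Prdx2), Dusp1 (Ergic1), Gpr3 (Cd164l2), Mxd3 (Prelid1), Sstr2 (Slc39a11), Slc25a25 (Naif1), Arl5b (Nsun6) and Arhgap26 (Fgf1), and the name Arhgap26 is carried by 2 GENCODE genes. Where a gene had several RefSeq promoters, the first listed was used. The alternatives were DESeq2 1.42.0, RLE scaling, other filters and fold thresholds, no cohort term, the replicate number as a block, each cohort alone, thinning to the smallest library, the second libraries, and leaving out each mouse.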

Additional observations from a re-analysis of the deposited data

Results flagged for a closer look

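For 8 of the 112 groups of 4 mice behind the genes called at 1 hr, 1 mouse stood apart from the other 3 by more of the range than Dixon's 95% critical value allows, and chance alone flags about 1 group in 20. At 1 hr, Dusp1 was at 129.9 CPM in replicate 2 against 92.1 to 97.0 CPM in the others. Mxd3 was at 9.89 CPM and Dusp5 at 28.1 CPM in replicate 4, against 5.15 to 5.39 CPM and 18.6 to 20.1 CPM in the other mice. Frmd6 was at 34.9 CPM in replicate 3 against 21.5 to 22.3 CPM. At 0 hr, Rnd3 was at 10.7 CPM in replicate 1 against 15.3 to 16.1 CPM. Npas4 was at 22.1 CPM in replicate 4 against 7.22 to 7.54 CPM. Atf4 was at 86.7 CPM and Pdzd2 at 106.8 CPM in replicate 3, against 72.6 to 73.8 CPM and 78.9 to 83.1 CPM in the other mice. In Dusp1, Mxd3, Dusp5, Frmd6 and Rnd3 the mouse that stood apart widened the difference between the time points, and in Npas4 and Atf4 it narrowed it. In Pdzd2, which fell, it widened it.

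The tested difference between the responses to repeated and acute cocaine was -1.46 on the log2 scale for Arl5b and -0.80 for Gm13889, as an interaction term over 23 libraries. Leaving out each mouse in turn, the Arl5b difference ran from -1.61 to -1.29 (adjusted p = 0.00113 to 0.0927) and the Gm13889 difference from -0.86 to -0.74 (adjusted p = 0.00396 to 0.0927), with 14 of 16 fits past the threshold for each.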

How the results depend on the processing

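Of 56 genes called at 1 hr (49 higher, 7 lower), 31 were called without the cohort term (30 higher, 1 lower). The exp16 mice alone gave 28 (22 higher, 6 lower), the exp17 mice alone 30 (29 higher, 1 lower) and the second libraries alone 19 (19 higher, 0 lower), each with 4 libraries in place of 8. A fold over 1.5 left 2 lower genes. DESeq2, RLE scaling, other filters on low counts, thinning, summing both libraries of a mouse and the fit of 17 mice gave 41 to 67. Leaving out each mouse gave 41 to 56 genes, 37 to 50 higher and 3 to 10 lower. Of the 56 genes, 34 passed the thresholds whichever mouse was left out. With the second libraries alone, the sign was opposite for Atf4 (-0.077), Ier5l (0.14) and Arhgap26 (0.17), and Sstr2 and H2-M3, too low to be tested there, were not higher at 1 hr. The cause was not tested. The difference between repeated and acute cocaine called 2 genes, 1 without the cohort term, 0 in the second libraries, 0 to 5 without 1 mouse and 91 without a filter on low counts, and the cause was not tested. That between repeated and challenge cocaine called 0 genes, 2 in the second libraries and 4 without the filter. At 2 hr, 22 genes were higher, and 38 without replicate 5.

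With the replicate block, 60 genes were called (52 higher, 8 lower), the 56 among them, and the block changed neither count of response differences. Deviations from the group means correlated at 0.15, 0.12, 0.089 and 0.18 between mice of the same number, and at -0.022 and -0.038 after the cohort means were removed, so the numbers share the cohort only and were not taken as pairs.

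H2-M3, Mxd3 and Sstr2 rested on few reads, and genes such as Nr4a2, Bdnf and Atf3 were too low to be tested at this depth.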
